A study of Mus musculus with 31 samples.

Results

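Tissue of 8 mouse medulloblastomas was compared with 3 cultures of neural stem cells (NSC) from the cerebellum, together 11 of the 31 Affymetrix arrays of the series, taken by their titles. The tumours carry the label Ptch het p53 wt, which is a mouse heterozygous for Ptch with intact p53. The NSC were grown from white matter of the cerebellum at postnatal day 7, and their sample names carry the mark WT. Both groups are labelled C57BL/6, and no age is given for the tumour-bearing mice. The NSC grew as neurospheres, free-floating spheres of cells, in medium with EGF and FGF2, whereas the other group is labelled as tumour tissue. Genotype, culture and mixture of cells therefore differ together between the groups and cannot be told apart, and the age of the tumour-bearing mice is not given in the sources used here. Each tissue has a neurosphere line of cancer stem cells (CSC) from the same tumour, grown in the same growth factors, and the levels in these 8 lines are given beside the results, as are tests of the lines against 3 NSC cultures from the IV ventricle of the hindbrain. Tissues and lines are called by their tumour: 74, 91, 92, 9, 49, 68, 77 and 83.

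Sonic hedgehog (Shh) is the main growth signal of granule neuron precursors, the cells of the outer layer of the young cerebellum that give rise to its most numerous neuron. Ptch1 is the receptor that holds the pathway off by restraining Smo, and loss of this brake lets the Gli transcription factors work and precursors divide, which is how medulloblastoma arises in Ptch heterozygous mice. NSC of the white matter are another cell type, which express glial and stem cell genes and give rise to glia and interneurons.

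The values were log2 intensities made by the submitters with RMA, so a difference of 1 is 2-fold. Of 18194 genes, each read by its brightest probe set, limma called 7926 different at a Benjamini-Hochberg adjusted p under 0.05, which is 43.6%. Of these, 3524 were higher in tissue (19.4%) and 4402 lower (24.2%). These shares are the background for the counts of each gene list below. With a minimum of 2-fold as well, 7.63% were higher and 7.82% lower, and the ranges of the groups did not overlap for 36.8% of genes. Pairs of tissues correlated at 0.981 to 0.992 over all genes, pairs of NSC at 0.991 to 0.992, and a tissue with an NSC culture at 0.909 to 0.924. Where the arrays were scaled to the median of their brighter genes, all differences moved up by 0.11, and 4339 genes were called higher and 3338 lower. The floor was taken as 0.72 to 1.67, the range of 3 genes of the Y chromosome on the 19 arrays with Eif2s3y under 2. These were Eif2s3y, Kdm5d and Uty. The background of other probe sets was not measured, so a gene that reads above this floor is not thereby shown to be expressed. Where a low level sits on the floor, differences against it understate the change. The arrays measured bulk RNA, in which fewer cells of a type and less RNA per cell cannot be told apart.

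**Figure D1:**
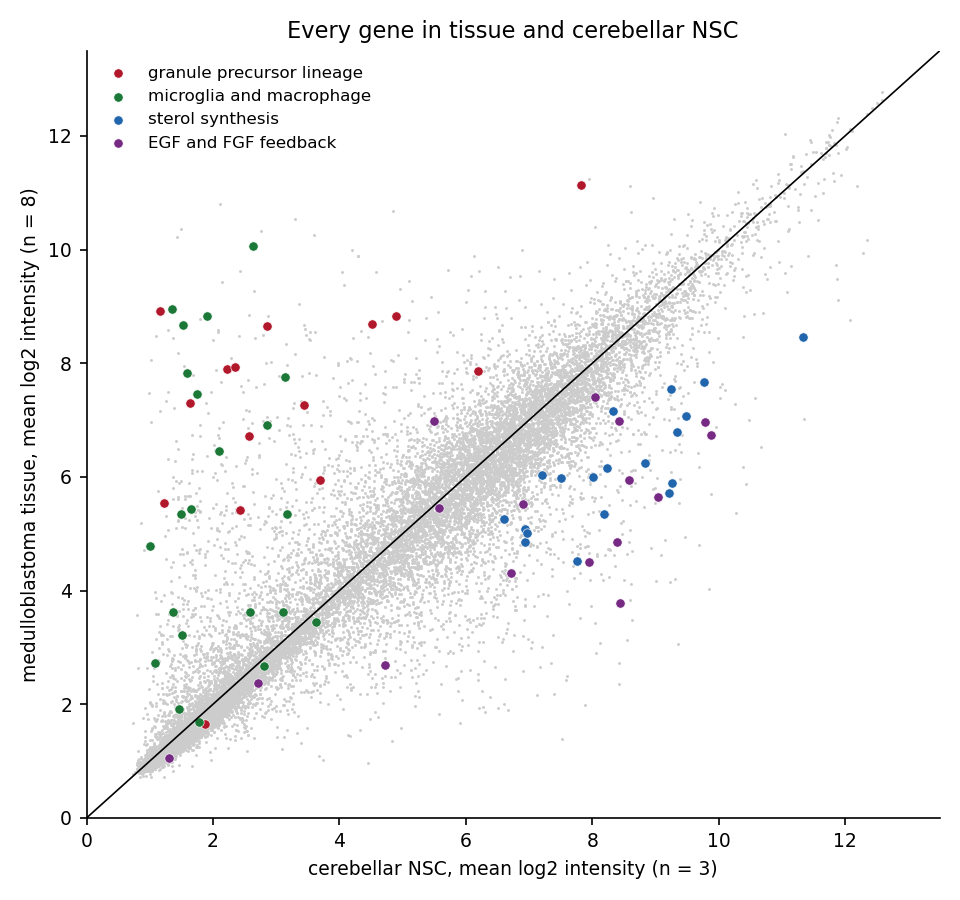
Mean log2 intensity of each of 18194 genes in the 3 cerebellar NSC cultures (x axis) and the 8 tissues (y axis), with 4 gene lists in colour and the line of equal levels. Most granule precursor genes and microglia genes lie above the line, many of them at low NSC levels, all sterol synthesis genes lie below it, and so do 14 EGF and FGF feedback genes called lower.

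Among genes whose groups did not overlap, the highest differences belonged to neuronal and myeloid genes. Neurod1, a transcription factor of granule neurons, ranged from 10.04 to 10.55 with a median of 10.19 in the tissues and read 1.66, 1.12 and 1.50 in the NSC, a difference of 8.79 ± 0.13 (SE, adjusted p = 1.78e-13). Reln, the secreted protein by which granule cells guide other neurons, stood at 10.23 to 11.39 against 1.80, 2.25 and 2.29, a difference of 8.69 ± 0.21. The microtubule regulator Stmn2, the vesicular glutamate transporter Slc17a6, the zinc finger factor St18, the basic helix-loop-helix factor Nhlh2 and the phosphatase subunit Ppp2r2c differed by 7.56, 7.30, 7.38, 7.75 and 7.20. The other members of this top 12 were the lysozymes Lyz1 (8.88) and Lyz2 (7.44) and the protease cathepsin S (Ctss, 7.61), all made by myeloid cells, and the secreted proteins Apod (7.29) and Sfrp1 (7.24). Lyz1 and Lyz2 are close copies, so their probe sets may share signal. At the other end stood Sall3, a zinc finger factor, with 2.67 to 3.36 in the tissues against 9.15, 9.68 and 9.27 in the NSC, a difference of -6.30 ± 0.14. Next to it were the channel-like protein Clic5 (-6.15), the vesicle protein Rab26 (-6.06), the matrix proteins Fbn2 (-5.91) and Tnc (-5.82), the exchange factor Vav3 (-5.70) and the stem cell factor Sox3 (-5.42). The homeobox factor Meis2, the factor Rfx4, the mTOR inhibitor Ddit4l, the sulfotransferase Chst7 and Lratd1 completed the 12 with differences of -5.22 to -5.10.

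Ptch1 itself did not separate the groups. It ranged from 7.67 to 9.02 with a median of 8.27 in the tissues and read 8.35, 7.99 and 8.62 in the NSC, a difference of -0.06 ± 0.24 (adjusted p = 0.871). The tissue range encloses all 3 NSC values. A second probe set of Ptch1 read 5.87 in the tissues and 5.11 in the NSC on average, and one more 3.45 and 3.54. The lines stood lower, at 5.72 to 7.75 with a median of 6.46, and tissue exceeded its matched line, in a fit paired by tumour, by 1.63 ± 0.29 (adjusted p = 0.000982). The comparison with lines uses the same tissue arrays as that with NSC, so the pair is not independent. The labels do not say which part of Ptch is altered, so these probe sets do not check the genotype.

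Genes of the granule precursor lineage, the known origin of hedgehog tumours, were nearly all higher in tissue than in NSC. Of 17 genes on this list, 15 were measured, and 14 were higher in tissue at a median difference of 4.16, against -0.07 over all genes and 19.4% of genes called higher. Atoh1, the factor that specifies granule precursors, read 7.98, 7.84, 8.53, 7.75, 7.91, 7.75, 8.03 and 7.45 in tissues 74, 91, 92, 9, 49, 68, 77 and 83. In the NSC it read 1.91, 2.35 and 2.41, so every tissue lay far above every culture, and the difference was 5.68 ± 0.19 (adjusted p = 2.66e-10). Its level in the 8 lines, 1.98 to 2.77, lay with the NSC and not with the tissues. Barhl1, a homeobox factor downstream of Atoh1, gave the same order, reading 6.93 to 8.57 with a median of 8.06 in the tissues, 2.30, 2.27 and 2.47 in the NSC and 1.88 to 2.33 in the lines. Its relative Barhl2 differed by 4.32 ± 0.15.

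The Zic zinc finger factors, which keep granule precursors dividing, varied more. Zic1 was also well measured in the NSC, at 7.73, 9.003 and 6.72, and rose further to 10.96 to 11.38 in the tissues, a difference of 3.31 ± 0.33 (adjusted p = 3.76e-06). Zic4 differed by 4.16 ± 0.22. Zic2 and Zic5, neighbours in the genome, were high in most tissues but not in tumour 91, where Zic2 read 2.93 and Zic5 2.97. The other 7 tissues held 3.79 to 6.62 and 7.60 to 8.25, and the differences over all 8 were 3.003 ± 0.69 (adjusted p = 0.0034) and 3.83 ± 0.93 (adjusted p = 0.0047). With the 4 tissues 74, 91, 92 and 9 alone Zic5 was not called (adjusted p = 0.0588, the highest of its alternatives). Zic5 in tissue 91 lay in the NSC range of 3.01, 4.53 and 2.77.

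Factors that act as precursors leave the cell cycle were high in all 8 tissues. Nhlh1 and Nhlh2, basic helix-loop-helix factors of newborn neurons, differed by 5.66 ± 0.17 and 7.75 ± 0.14, and Insm1, a zinc finger factor of neuronal progenitors, by 5.80 ± 0.20. Nhlh2 ranged from 8.64 to 9.26 with a median of 8.88, whereas the NSC (1.27, 0.93 and 1.30) and the lines (0.94 to 1.20) sat at the floor. Pax6, a homeobox factor of the granule lineage and of other progenitors, read 8.49 to 9.16 in tissue and 4.74, 5.35 and 4.59 in NSC, a difference of 3.94 ± 0.18. The lines held an intermediate 5.62 to 6.30. Mab21l1 (4.17), the netrin receptor Unc5c (2.26) and the homeobox factor Meis1 (1.68) made up the 14, and Lhx9 was not called (-0.22 ± 0.11, adjusted p = 0.114). Against the matched lines 14 members were higher and 1 lower, where 23.1% of all genes were higher and 26.6% lower.

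**Figure D2:**
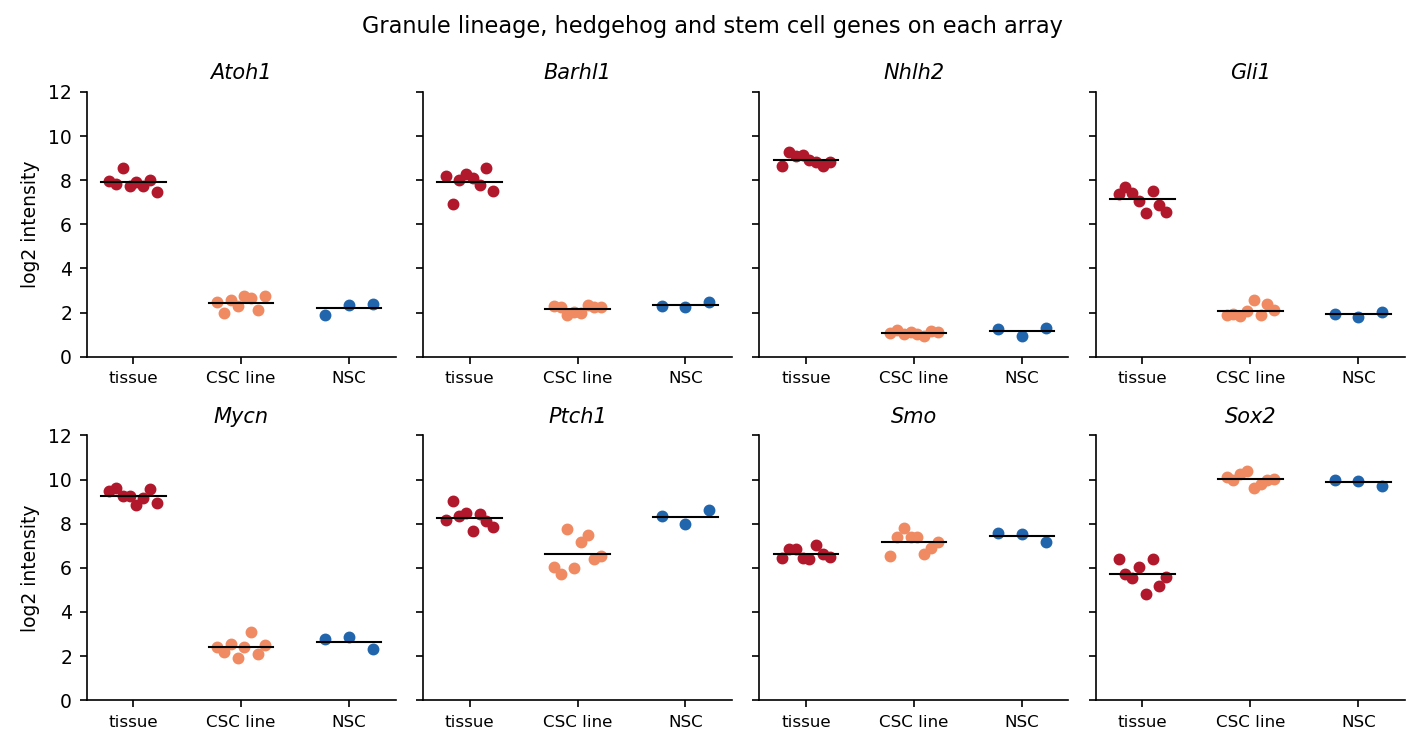
Log2 intensity of 8 granule lineage, hedgehog and stem cell genes on each array of the tissues (8), the matched CSC lines (8) and the cerebellar NSC (3), with a bar at each group's mean. Atoh1, Barhl1, Nhlh2, Gli1 and Mycn are high in all 8 tissues and low in both kinds of culture, the Ptch1 values of tissue and NSC overlap, and Sox2 is lower in the tissues.

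Hedgehog pathway genes differed in both directions. Of 19 measured, 8 were higher in tissue and 7 lower, with a median of -0.06. Gli1, Gli2, Mycn and Sfrp1 were among those higher. Gli1, both effector and target of the pathway, ranged from 6.50 to 7.69 with a median of 7.23 in the tissues and read 1.94, 1.80 and 2.04 in the NSC, a difference of 5.20 ± 0.24 (adjusted p = 3.7e-09). All 8 lines, at 1.86 to 2.56, stood near the NSC. Gli2, the main activator, read 7.76 to 8.54 in tissue and 4.17, 5.08 and 3.30 in NSC, a difference of 3.89 ± 0.29, and Mycn, which drives precursor division downstream of Gli, 8.86 to 9.62 against 2.79, 2.86 and 2.31, a difference of 6.62 ± 0.18. Sfrp1, a secreted Wnt antagonist that Gli proteins induce, differed by 7.24 ± 0.27. For each of these 4 genes the lowest tissue exceeded the highest NSC culture.

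Hhip, a membrane protein that binds and blocks Shh, read 5.26 to 7.91 in tissue against 2.75, 2.63 and 2.49 in NSC, a difference of 3.52 ± 0.43 (adjusted p = 2.43e-05). Its lines ranged from 3.42 to 7.07 with a median of 4.90, above the cerebellar NSC. Tissue and lines were not called different (1.05 ± 0.43, adjusted p = 0.0686). No measured member of the hedgehog list, Hhip included, was called between the lines and the IV ventricle NSC. The co-receptor Boc (2.56 ± 0.15), the Gli inhibitor Sufu (1.10 ± 0.12) and Spop (0.91 ± 0.26), an adaptor that marks Gli proteins for degradation, were also higher. The call of Spop depended on the samples, its adjusted p being 0.0512 and 0.0573 without NSC culture 1 or 2, in a range of 6.18e-05 to 0.32 over all alternatives, and its groups overlapped.

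Smo, other receptor components and a cilium protein were on the low side. The signal transducer Smo read 6.38 to 7.02 in tissue and 7.58, 7.53 and 7.18 in NSC, a difference of -0.79 ± 0.15 (adjusted p = 0.000924). The co-receptors Cdon and Gas1 differed by -2.22 ± 0.24 and -0.996 ± 0.19, the ciliary kinesin Kif7 by -0.96 ± 0.10, the Shh exporter Disp1 by -1.01 ± 0.14, and Gli3, which acts mainly as a repressor, by -1.85 ± 0.39. Boc and Cdon, related co-receptors, thus differed in opposite directions. Ccnd1, the D-type cyclin that Gli proteins induce in precursors, was lower, at 9.33 to 10.04 against 10.98, 11.20 and 11.23 (-1.42 ± 0.14, adjusted p = 4.81e-06), whereas Ccnd2 was high everywhere, at 10.58 to 11.38 and 11.40, 11.35 and 11.11, and was not called (-0.30 ± 0.16, adjusted p = 0.14). Shh read 2.57 to 3.26 in the tissues and 3.25, 3.17 and 3.22 in the NSC and was not called (adjusted p = 0.213). In the RefSeq promoter table (GRCm38.p6), 13 of the measured members had a promoter. None of these held the letters GACCACCCA, a Gli motif, on either strand in the 250 bases before the start. Of all genes with a promoter there, 0.255% did. At so low a share a match among 13 was unlikely, so its absence does not show whether these genes have Gli sites. The 13 did not include Gli1, Sfrp1 or Ccnd1.

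Genes of immature neurons were higher in tissue than in NSC, and genes of synapses varied. Of 19 general neuronal genes 11 were higher and 1 lower, with a median difference of 2.33. The immature neuron genes Dcx (5.84 ± 0.21), Tubb3 (6.65 ± 0.24) and Stmn2 (7.56 ± 0.25) and the synaptic vesicle fusion protein Snap25 (6.27 ± 0.26) led. Dcx read 9.93 to 11.05 in the tissues, 5.08, 4.54 and 4.91 in the NSC and 2.31 to 7.73 in the lines. The synaptic calcium sensor Syt1 was not called (0.33 ± 0.53, adjusted p = 0.647, in a range of 0.0314 to 0.98 over its alternatives), and the kinase Camk2b was lower (-2.16 ± 0.18).

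Of 14 genes of maturing and mature granule neurons, 6 were higher and 2 lower. Neurod1, the adhesion protein Cntn2 (4.83 ± 0.23), the synapse organiser Cbln1 (5.69 ± 0.28), the calcium buffer Calb2 (3.39 ± 0.37) and the cadherin Fat2 (2.11 ± 0.34) were higher in all 8 tissues than in any NSC culture. The potassium channels Kcnc1 (-2.78 ± 0.22) and Kcnd2 (-2.10 ± 0.41) were lower. Gabra6, the GABA receptor subunit that marks mature granule neurons, was not called. It read 2.61, 6.15, 3.65, 5.84, 1.51, 7.47, 1.58 and 8.28 in tissues 74, 91, 92, 9, 49, 68, 77 and 83 and 1.60, 1.46 and 1.36 in the NSC, a difference of 3.16 ± 1.35 (adjusted p = 0.0777).

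Genes of mature cerebellar neurons set the tissues apart from each other. Purkinje cells, the output neurons of the cerebellar cortex, express Pcp2 and Calb1, and of 6 measured genes of these cells 2 were called higher. These were the calmodulin-binding Pcp4, at 5.88 to 8.63 in tissue against 2.54, 2.38 and 2.65 in the NSC (4.65 ± 0.58), and the forkhead factor Foxp2, at 6.48 to 7.35 against 3.69, 3.57 and 3.38 (3.36 ± 0.18). Pcp2 read 2.88, 6.23, 4.21, 6.06, 2.20, 8.34, 2.38 and 8.58 in the tissues in the same order, and Calb1 2.26, 6.13, 3.66, 5.64, 1.35, 7.66, 1.44 and 8.29. For Gabra6, Pcp2 and Calb1 alike, tissues 83 and 68 were the highest and tissues 49 and 77 the lowest, which read near the NSC at 1.60, 1.46 and 1.36, 2.18, 2.32 and 2.38 and 1.46, 1.31 and 0.99 for these genes. Gad1, the GABA-making enzyme of inhibitory neurons, gave 2.74, 5.27, 4.37, 5.32, 1.58, 7.79, 1.91 and 7.70, again highest in 68 and 83 and lowest in 49 and 77, beside 6.43, 5.77 and 4.69 in the NSC. Car8, a calcium signalling protein of Purkinje cells, ranged from 2.70 to 8.04 in tissue and was also present in the NSC, at 6.29, 4.64 and 3.72. None of these 5 genes was called against the NSC.

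The sample names end in a string of digits that 4 tissues (74, 91, 92 and 9) share, 49 and 77 share, and 68 and 83 share. Tissues 68 and 83 thus shared a string and the highest levels of these genes, and they also had the highest means of the mature granule, Purkinje and interneuron lists. Tissues 49 and 77 shared another, but for the granule and Purkinje lists tissue 49 lay above tissue 74. The labels do not give the meaning of the string, and its part in the result was not tested. No string was shared by a tissue and a cerebellar NSC culture. With the string as a random block 7301 genes were called, and with the 4 tissues of the most common string 7590. Without tissues 68 and 83, a choice made after seeing these values, 14 granule precursor genes were called higher, as with all 8. Of the 7 measured interneuron genes, Lhx1, a homeobox factor of Purkinje cells and interneurons, was high in every tissue (7.83 to 8.53 against 1.41, 1.42 and 1.52, a difference of 6.73 ± 0.15), and the calcium buffer Pvalb differed by 4.09 ± 0.77. The other 5 of the list, Gad1 among them, were not called. Atoh1 and Gli1 held narrower ranges over the same tissues, 7.45 to 8.53 and 6.50 to 7.69.

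**Figure D3:**
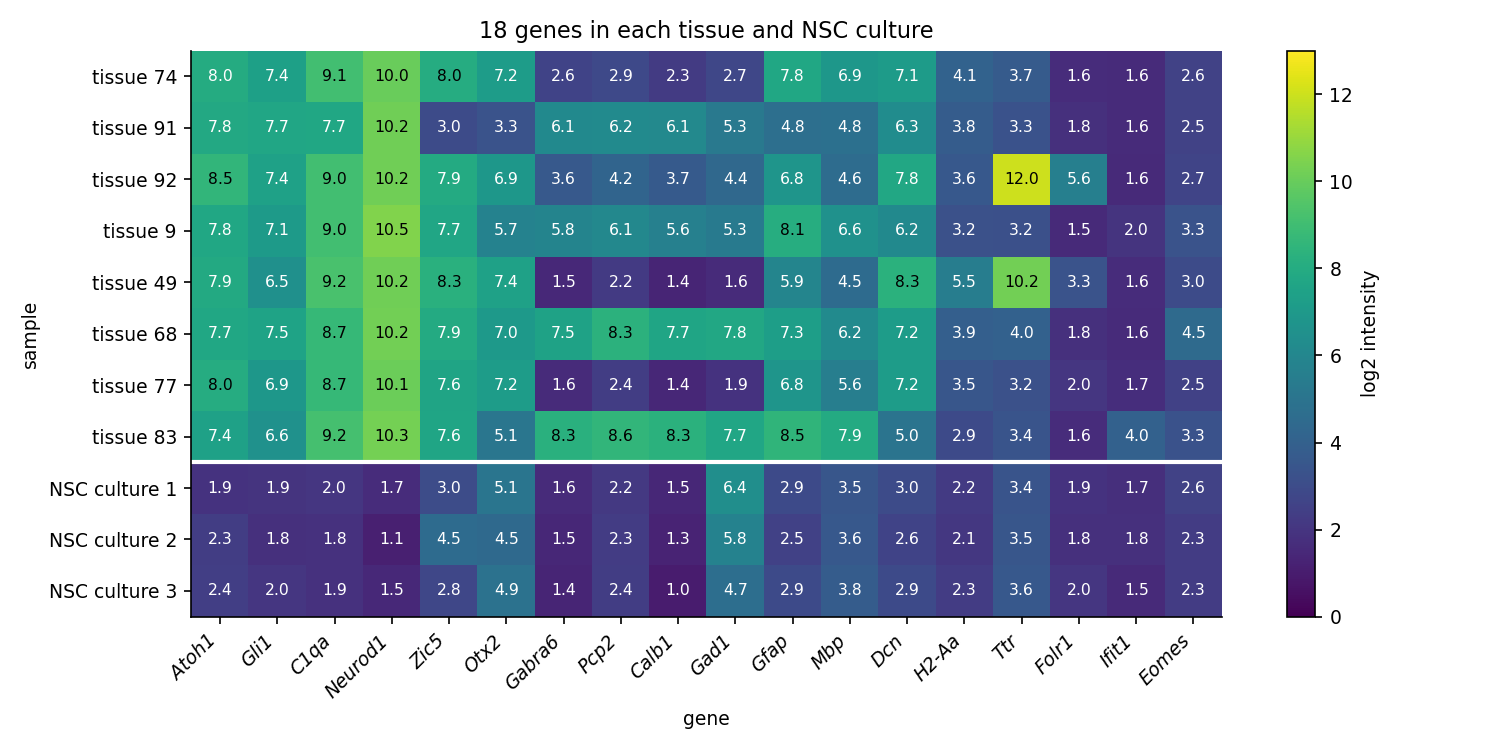
Log2 intensity of 18 genes (columns) in each of the 8 tissues and 3 cerebellar NSC cultures (rows), as colour with the value written in each cell. Gabra6, Pcp2, Calb1 and Gad1 are highest in tissues 68 and 83, and the choroid plexus genes Ttr and Folr1 in 92 and 49. The interferon gene Ifit1 is highest in 83, whereas Atoh1, Gli1, C1qa and Neurod1 are high in all 8 tissues.

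Most genes of microglia and macrophages were higher in tissue. Of 22 measured microglia and macrophage genes 17 were higher in tissue and none lower, with a median difference of 3.78. The complement gene C1qa ranged from 7.72 to 9.24 with a median of 9.04 in the tissues and read 2.03, 1.83 and 1.87 in the NSC, a difference of 6.92 ± 0.26 (adjusted p = 6.93e-10). The survival factor receptor Csf1r read 6.81 to 8.29 against 3.23, 2.97 and 3.24 (4.62 ± 0.27), and the signalling adaptor Tyrobp 6.69 to 7.89 against 1.91, 1.64 and 1.70 (5.71 ± 0.20). Microglia, the resident macrophages of brain, are marked by Cx3cr1 and P2ry12, which differed by 3.78 ± 0.43 and 1.70 ± 0.27, P2ry12 reaching only 2.27 to 3.84 in the tissues. Of the list, 10 genes sat at the floor in the NSC, 9 in the lines and none in the tissues, and the mean over the list was 2.04 to 2.08 in the NSC, 1.98 to 2.26 in the lines and 4.78 to 5.80 in the tissues. Tissue 91 was the lowest, with C1qa at 7.72 where the other 7 read 8.69 to 9.24.

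Of 13 antigen presentation genes 8 were higher and 1 lower, with 5 higher where NSC culture 1 or 2 was left out, and the part of the microglia markers in this was not tested. The class II genes Cd74 (2.58 ± 0.48) and H2-Aa (1.61 ± 0.41) and the class I gene H2-D1 (2.18 ± 0.19) were higher, and the peptide transporter Tap1 was lower (-1.19 ± 0.20). H2-Aa was highest in tissue 49, at 5.53, and Cd74 too, at 7.14. The other probe sets of H2-Aa differed by 0.32 to 4.08. H2 genes are close copies, which the probe sets may not tell apart. None of 10 lymphoid genes was called, and the T cell genes Cd3e and Cd3d and the B cell gene Cd79a read 3.34 to 3.73, 2.11 to 2.68 and 1.85 to 2.44 in the tissues against 3.77, 3.50 and 3.60, 2.65, 2.52 and 2.53 and 2.89, 2.21 and 2.13 in the NSC. Haemoglobin and other red blood cell genes were at or near the floor in both groups, with a list mean of 1.34 to 1.74 in the tissues and 1.40 to 1.60 in the NSC over the 4 measured genes.

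Vessel genes were higher in tissue, most of them at low levels. Of 16 endothelial genes 14 were higher, with a median of 0.85. The tight junction protein Cldn5 ranged from 5.08 to 6.07 with a median of 5.57 and read 2.38, 2.40 and 2.26 in the NSC, a difference of 3.22 ± 0.17 (adjusted p = 1.18e-08), and the blood-brain barrier transporter Slco1a4 differed by 2.07 ± 0.18. The adhesion proteins Pecam1 and Cdh5 and the receptor Tek were called at 0.89 ± 0.19, 0.81 ± 0.16 and 1.17 ± 0.16, the call of Cdh5 being lost with the mean of its probe sets (0.25, adjusted p = 0.0686, the highest of its alternatives). Of 11 genes of mural cells, which wrap vessels, 5 were higher, led by the G protein regulator Rgs5 with 6.92 to 7.56 against 1.31, 1.49 and 1.34 (5.83 ± 0.13) and by vitronectin (Vtn, 4.04 ± 0.15). The potassium channel Kcnj8 differed by 1.05 ± 0.23, and the receptor Pdgfrb was not called (0.33 ± 0.16, adjusted p = 0.105). A second probe set of Pdgfrb read 2.72 in the tissues and 1.00 in the NSC on average, so its result depends on the probe set.

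Fibroblast and meningeal genes varied between tissues. Of 14, 8 were higher and 1 lower. The proteoglycan decorin (Dcn) read 7.12, 6.32, 7.79, 6.15, 8.33, 7.17, 7.19 and 5.02 in tissues 74, 91, 92, 9, 49, 68, 77 and 83 against 2.98, 2.62 and 2.90 in the NSC, a difference of 4.06 ± 0.53 (adjusted p = 4.5e-05). Tissue 49 was highest and tissue 83 lowest. The collagens Col3a1 (3.54 ± 0.46) and Col1a2 (1.32 ± 0.24), lumican (Lum, 2.28 ± 0.50) and the growth factor Igf2 (2.91 ± 0.49) were higher, Col1a1 was not called (0.17 ± 0.17, adjusted p = 0.456), and the forkhead factor Foxc1 was lower (-1.23 ± 0.24).

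Some genes of choroid plexus, the secretory epithelium of the ventricles, were high in a pair of tissues. Transthyretin (Ttr), its most abundant product, read 12.001 in tissue 92 and 10.24 in tissue 49 and 3.19 to 4.05 in the other 6 tissues, beside 3.35, 3.48 and 3.56 in the NSC. The folate receptor Folr1 read 5.62 and 3.31 in the same tissues and 1.53 to 2.05 in the others. Over all 8 neither was called (adjusted p = 0.431 and 0.608), and of 11 genes on the list 1, Clic6, was higher (1.17 ± 0.36, but adjusted p = 0.0623 and 0.0665 without NSC culture 1 or 2, the highest of its alternatives) and 2 lower, among them Foxj1, the factor of multiciliated cells (-0.76 ± 0.18). Clic6, a chloride channel protein, was highest in tissue 92 (5.76), but in tissue 49 (4.19) it lay below tissues 9 (5.18) and 68 (4.37). A second probe set of Clic6 differed by 3.23 between tissue and NSC. Without tissues 92 and 49, a choice made after seeing these values, 7412 genes were called in all.

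Glial genes went both ways. Among 15 astrocyte genes 8 were higher and 3 lower. Gfap, the intermediate filament of astrocytes, read 4.76 to 8.52 in tissue against 2.92, 2.53 and 2.90 in NSC, a difference of 4.21 ± 0.63 (adjusted p = 0.000131), and the water channel Aqp4 6.35 to 9.42 against 4.93, 2.97 and 2.98 (4.16 ± 0.68). The glutamine synthetase Glul differed by 1.90 ± 0.22 and the calcium-binding S100b by 2.34 ± 0.34. In the other direction Aldh1l1, an enzyme of folate metabolism by which astrocytes are often marked, read 3.90 to 6.43 in tissue and 10.34, 9.44 and 9.29 in NSC, a difference of -4.88 ± 0.51 (adjusted p = 6.74e-06). The acyl-CoA synthetase Acsbg1 was lower as well (-2.64 ± 0.38). Gfap and Aqp4, like the mature neuron genes, were highest in tissue 83, at 8.52 and 9.42.

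Oligodendrocyte lineage genes were split by gene. Of 9 precursor genes 4 were higher and 5 lower, and for all 9 the groups did not overlap, as for 36.8% of all genes. Pdgfra, the receptor that marks these precursors, read 9.28 to 10.10 in tissue and 4.87, 3.81 and 3.43 in NSC, a difference of 5.57 ± 0.26 (adjusted p = 4.39e-09), and the receptor Gpr17 differed by 2.89 ± 0.39. The lineage factors Olig1 and Olig2 were lower, at 8.29 to 9.12 against 12.05, 12.02 and 12.18 (-3.33 ± 0.15) and 5.59 to 6.60 against 10.27, 10.51 and 10.37 (-4.20 ± 0.16). The proteoglycans Bcan (-2.41 ± 0.20) and Cspg4 (-1.45 ± 0.19) were lower too. Of 11 myelin and mature oligodendrocyte genes 3 were higher, including myelin basic protein (Mbp, 2.27 ± 0.63), which was highest in tissue 83 at 7.93, and the tight junction protein Cldn11 (1.93 ± 0.43), and Aspa was lower (-1.36 ± 0.27). The other probe sets of Mbp differed by 1.72 to 6.29.

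Most stem cell and radial glia genes were lower in tissue than in the NSC. The list was chosen with earlier results of these data known, so it does not check the label of the cultures. Of 17 measured 12 were lower in tissue and 3 higher, with a median of -1.81, where 24.2% of all genes were lower. Sox2, a factor of neural stem cells, ranged from 4.80 to 6.42 with a median of 5.63 in tissue and read 9.98, 9.92 and 9.73 in the NSC, a difference of -4.18 ± 0.30 (adjusted p = 2.07e-07). Nestin (Nes) read 5.45 to 6.59 against 9.13, 9.56 and 9.50 (-3.44 ± 0.24), the fatty acid binding protein Fabp7 9.59 to 10.64 against 12.49, 12.59 and 11.98 (-2.18 ± 0.22), and vimentin (Vim) 8.92 to 9.86 against 11.73, 11.95 and 11.92 (-2.39 ± 0.20). The lines read 9.60 to 10.41 for Sox2 and 8.45 to 9.48 for Nes, near the NSC and above every tissue. Prom1, the CD133 antigen, went the other way, with 5.75 to 6.44 in tissue against 4.87, 4.45 and 4.08 (1.62 ± 0.19), and Id1 was higher by 0.99 ± 0.24, though not called with all 27 samples in the fit (adjusted p = 0.135, the highest of its alternatives).

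Notch pathway genes were mostly lower, 9 of 16, with 2 higher. The receptor Notch1 read 4.40 to 5.18 in tissue and 8.84, 8.85 and 9.09 in NSC, a difference of -4.18 ± 0.17 (adjusted p = 1.45e-09), and the ligand Dll1 and the Fringe enzyme Lfng differed by -3.24 ± 0.23 and -2.63 ± 0.22. Hey1, a target of the pathway, was higher in every tissue (8.22 to 9.09 against 5.45, 5.19 and 4.60, 3.46 ± 0.19). Of 15 Wnt feedback genes 3 were higher and 4 lower, near the 19.4% and 24.2% of all genes. The antagonists Apcdd1 (3.50 ± 0.18) and Sfrp2 (2.47 ± 0.30) were higher, and the feedback genes Axin2 (-1.79 ± 0.14), Rnf43 (-2.83 ± 0.25) and Znrf3 (-1.09 ± 0.13) lower.

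Regional identity genes also differed. Of 19 midbrain and hindbrain patterning genes 11 were lower and none higher, but 7 were lower with all 27 samples in the fit and 5 with 9 NSC as control. Meis2 read 1.66 to 3.53 in tissue and 7.52, 6.97 and 7.72 in NSC (-5.22 ± 0.32), and En1, the midbrain-hindbrain homeobox factor, 1.16 to 2.47 against 5.40, 4.14 and 5.38 (-3.39 ± 0.34), a difference that with 9 NSC was -1.40 and was not called (adjusted p = 0.101, the highest of its alternatives). En2, its relative expressed in cerebellum, was close in both, at 6.54 to 7.40 and 7.57, 7.52 and 7.53, and its small difference (-0.54 ± 0.16, adjusted p = 0.0132) changed sign with other NSC as the control, being 0.25 with the 6 hindbrain NSC, and was not called without NSC culture 1 (adjusted p = 0.0501, in a range of 0.00483 to 0.655). Otx2, a head organiser factor that many medulloblastomas express, read 7.21, 3.34, 6.89, 5.74, 7.44, 6.98, 7.16 and 5.10 in tissues 74, 91, 92, 9, 49, 68, 77 and 83 against 5.07, 4.46 and 4.92 in the NSC. Tissue 91 lay below the NSC and the other 7 above, and Otx2 was not called (adjusted p = 0.141). Of 8 genes of the human Group 3 panel 2 were lower, among them Myc (4.81 to 6.08 against 7.94, 7.58 and 8.04, -2.22 ± 0.26), the relative of Mycn. This count is near the 24.2% of all genes that were lower.

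**Figure D4:**
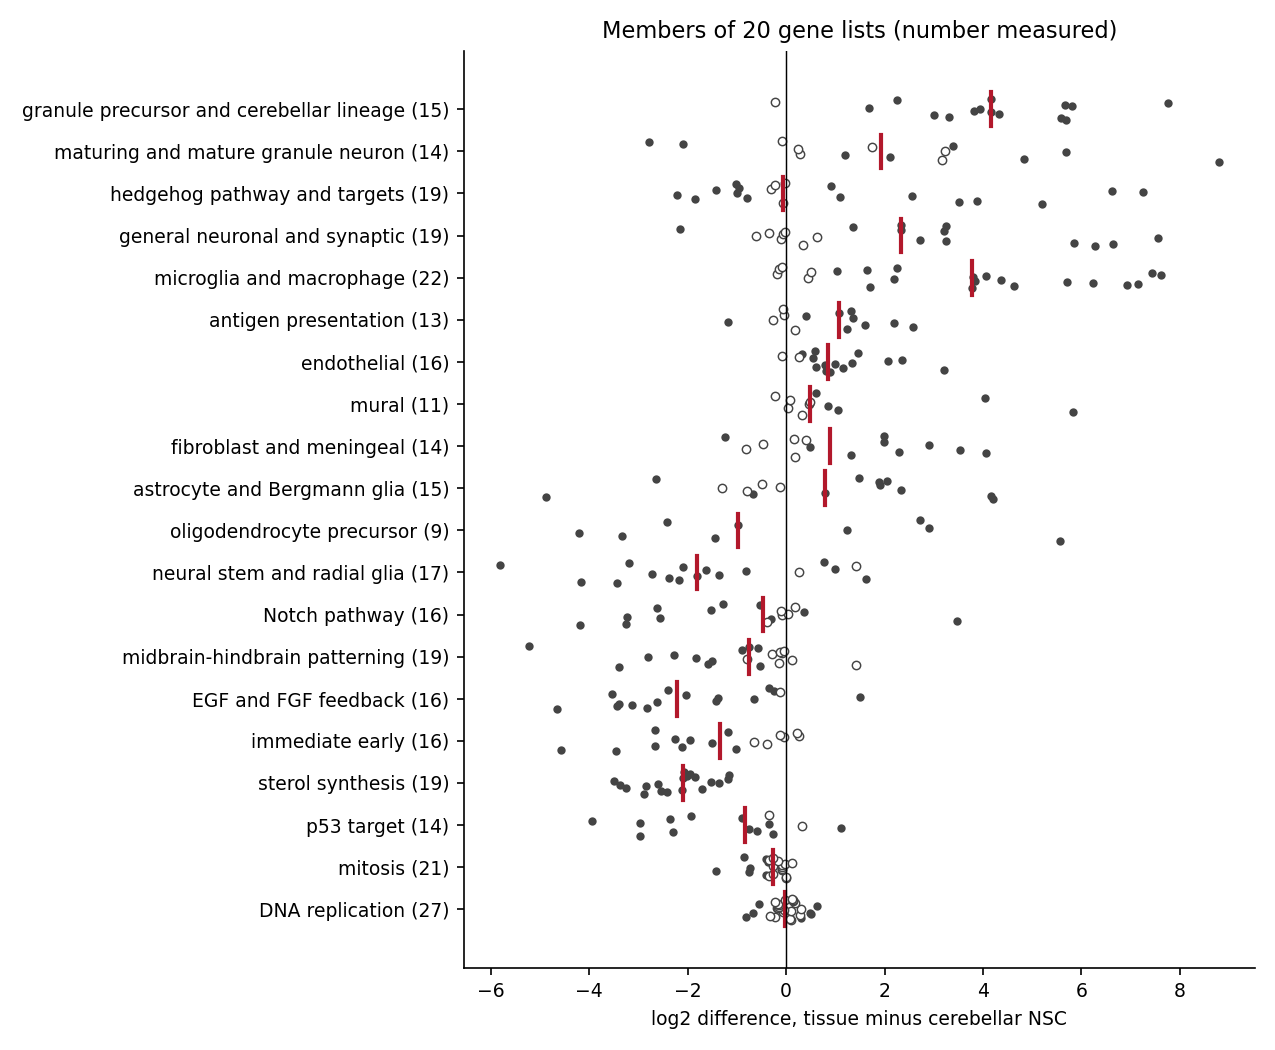
Log2 difference of tissue minus cerebellar NSC for each measured member (points) of 20 gene lists, with the list median as a bar, filled points being called at an adjusted p under 0.05. Granule precursor and microglia lists lie to the right of 0, neural stem, EGF and FGF feedback and sterol synthesis lists to the left, and mitosis and DNA replication lists near 0.

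Genes of growth factor signalling were lower in tissue. Of 16 feedback genes of the EGF and FGF pathways 14 were lower and 1 higher, with a median of -2.22. Spry4, an inhibitor induced by the pathway, read 3.43 to 4.05 in tissue and 8.22, 8.65 and 8.43 in NSC, a difference of -4.66 ± 0.13 (adjusted p = 8.14e-11). The ERK phosphatase Dusp6 (-2.82 ± 0.16), the Ets factors Etv4 (-3.44 ± 0.15) and Etv5 (-3.13 ± 0.25) and the inhibitor Spry1 (-3.39 ± 0.17) followed, and the phosphatase Dusp5 was higher (1.50 ± 0.26). In the lines, which grew in the same EGF and FGF2 as the NSC, Spry4 read 7.47 to 8.89 and Dusp6 9.02 to 9.97, near the NSC. The Dusp6 values of all 8 tissues lay below those of all 8 lines and all 3 NSC. Of 16 immediate early genes, which respond to stimulation within minutes to hours, 10 were lower and none higher. Egr1 read 4.87 to 6.79 in tissue against 10.32, 11.21 and 9.77 in NSC (-4.57 ± 0.42), Fos 4.50 to 6.54 against 8.32, 10.66 and 7.99 (-3.45 ± 0.55) and Jun 7.19 to 7.84 against 8.81, 9.51 and 8.97 (-1.51 ± 0.16). NSC culture 2 was the highest of the 3 for each of these.

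Every measured sterol synthesis gene, 19 of 24 listed, was lower in tissue, with a median of -2.09 and no overlap between the groups for any of them. Over all genes, 24.2% were lower and the groups did not overlap for 36.8%. Hmgcs1, the enzyme at the start of the pathway, ranged from 8.13 to 8.63 with a median of 8.50 in tissue and read 11.47, 11.37 and 11.17 in NSC, a difference of -2.88 ± 0.11 (adjusted p = 8.21e-10). Sqle, which oxidises squalene, Idi1, Cyp51 and Dhcr7, the last enzyme of one branch, differed by -2.42 ± 0.08, -2.55 ± 0.08, -2.85 ± 0.10 and -3.50 ± 0.12. The list mean was 6.09 to 6.24 in the tissues, 8.34 to 8.42 in the NSC and 8.31 to 9.03 in the lines. Tissue and culture did not overlap. Against their own lines all 19 were lower in tissue as well. Fatty acid synthesis genes were similar, 8 of 9 being lower, led by Scd1 (-4.53 ± 0.40), a desaturase, and the malic enzyme Me1 (-3.47 ± 0.18), with Fasn at -1.41 ± 0.14. The sterol genes are controlled together by SREBP factors, which work with NF-Y, a factor that binds CCAAT. Of the measured sterol genes 15 had a promoter in the RefSeq table, and CCAAT stood on one of the strands in the 250 bases before the start in all 15, against 37.5% of 27025 genes. The letters TCACNCCAC, part of a sterol response element, stood in 1 of the 15, against 1.22%.

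The 250 bases before the start of 3 of these genes are shown 5′ to 3′ because the sterol genes were lower together, with CCAAT on either strand (read as ATTGG on the other) and, in Hmgcs1, TCACNCCAC in capitals. Hmgcs1 lies at chr13:119690101-119690350 on the plus strand of GRCm38.p6, Idi1 at chr13:8885356-8885605 on the plus strand and Cyp51 at chr5:4104698-4104947 on the minus strand.
Hmgcs1: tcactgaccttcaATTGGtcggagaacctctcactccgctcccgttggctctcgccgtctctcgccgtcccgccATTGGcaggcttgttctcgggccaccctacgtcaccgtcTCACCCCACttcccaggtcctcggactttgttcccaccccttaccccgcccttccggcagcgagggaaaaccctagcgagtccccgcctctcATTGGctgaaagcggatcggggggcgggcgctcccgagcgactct
Idi1: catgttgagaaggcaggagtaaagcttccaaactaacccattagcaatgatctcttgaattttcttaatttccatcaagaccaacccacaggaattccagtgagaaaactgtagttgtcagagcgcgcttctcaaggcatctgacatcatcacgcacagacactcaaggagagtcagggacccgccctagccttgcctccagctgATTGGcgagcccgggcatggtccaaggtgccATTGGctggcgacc
Cyp51: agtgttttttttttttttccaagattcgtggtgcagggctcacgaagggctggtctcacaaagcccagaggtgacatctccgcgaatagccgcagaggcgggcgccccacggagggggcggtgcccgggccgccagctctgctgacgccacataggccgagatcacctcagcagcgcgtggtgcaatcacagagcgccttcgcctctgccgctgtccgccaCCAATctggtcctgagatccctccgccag

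These matches are letters only: 3 CCAAT in the Hmgcs1 window, 2 in that of Idi1 and 1 in that of Cyp51. The 3 genes differed between tissue and NSC by -2.88, -2.55 and -2.85.

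Glycolysis and hypoxia genes were lower in 11 of 18 cases and higher in 2. Pgk1 read 9.08 to 9.43 in tissue and 11.35, 11.12 and 10.76 in NSC (-1.83 ± 0.12), Ldha 8.65 to 9.02 and 10.83, 10.54 and 10.32 (-1.70 ± 0.12), and the vessel growth factor Vegfa 3.39 to 5.14 and 7.74, 6.68 and 5.20 (-2.27 ± 0.43). The vasoactive peptide adrenomedullin (Adm), induced by low oxygen, gave the strongest fall of the named members, at 2.60 to 3.58 against 7.30, 7.12 and 6.68 (-4.04 ± 0.23). Hexokinase 2 (Hk2), by contrast, was higher in every tissue, at 7.87 to 9.53 against 6.04, 6.19 and 5.16 (2.71 ± 0.35, adjusted p = 4.26e-05). The 3 NSC differed from each other, culture 1 holding the highest Vegfa and Ldha and culture 3 the lowest.

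Of 14 p53 target genes 11 were lower in tissue and 1 higher, with a median of -0.83. The tissues are labelled p53 wt and the NSC WT. The cell cycle inhibitor Cdkn1a ranged from 5.64 to 7.38 with a median of 6.36 and read 9.37, 9.53 and 9.33 in the NSC, a difference of -2.97 ± 0.33 (adjusted p = 1.21e-05). Ccng1 (-2.30 ± 0.18), Phlda3 (-2.97 ± 0.23), Zmat3 (-2.36 ± 0.18) and the kinase Plk2 (-3.94 ± 0.26) were lower, the p53 antagonist Mdm2 only slightly (-0.26 ± 0.08, with an adjusted p of 0.0751 and 0.0674 without NSC culture 2 or 3 and of 0.000239 to 0.279 over its alternatives), and the stress protein Sesn1 was higher (1.12 ± 0.10). For Cdkn1a the lines stood between, at 7.40 to 9.12 with a median of 8.42.

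Of 21 mitosis genes 7 were lower in tissue and none higher, with a median of -0.26, where 24.2% of all genes were lower and 19.4% higher. They were led by the kinase Plk1 (-1.43 ± 0.20), Aurkb (-0.76 ± 0.17) and Cdc20 (-0.74 ± 0.16), and with all 9 NSC of the series as control 12 were lower. The proliferation markers Mki67 and Top2a were not called. Mki67, the Ki-67 antigen, read 9.70 to 10.14 in tissue and 9.96, 10.001 and 9.90 in NSC (0.01 ± 0.11, adjusted p = 0.963), and Top2a 9.52 to 9.86 and 9.71, 9.82 and 9.52 (0.01 ± 0.10, adjusted p = 0.968). Of 27 DNA replication genes 4 were higher and 3 lower. Mcm7 (0.51 ± 0.10), a helicase subunit, and Prim1 (0.62 ± 0.12), a primase, were higher, and Rrm2 (-0.81 ± 0.12) and Gins2 (-0.67 ± 0.09) lower, with 2 genes higher where NSC culture 1 was left out.

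**Figure D5:**
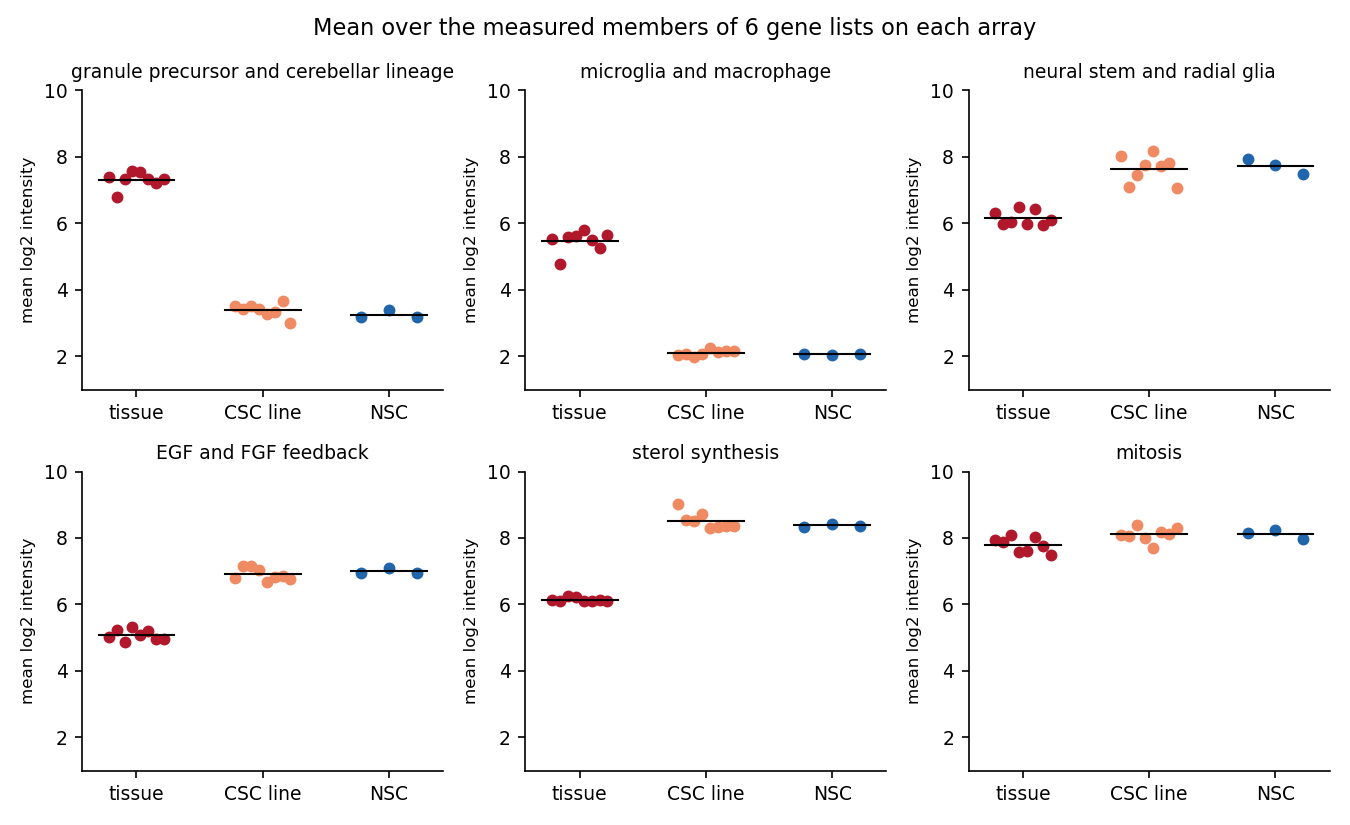
Mean log2 intensity over the measured members of 6 gene lists on each array of the tissues (8), the matched CSC lines (8) and the cerebellar NSC (3), with a bar at each group's mean. The tissues stand apart from both kinds of culture for the granule precursor, microglia, sterol synthesis and EGF and FGF feedback lists, and overlap with the lines for mitosis genes.

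The comparison of the 8 lines with the 3 IV ventricle NSC, culture against culture, shares no array with that of tissue and cerebellar NSC. The lines come from the same tumours as the tissues, however, so the calls of these comparisons are not independent. Some lines also share a name ending with tissues, and some IV ventricle NSC with cerebellar NSC. It called 310 genes, 59 higher in the lines (0.324%) and 251 lower (1.38%). Genes called in the same direction in both numbered 36 higher, which is 1.02% of those higher in tissue and 61.0% of those higher in the lines, and 186 lower, 4.23% and 74.1%. A further 13 genes higher in tissue were lower in the lines, and 9 lower in tissue were higher in the lines. The line comparison rested on its controls: it called 24 genes without IV ventricle NSC culture 1, 82 without culture 2 and 303 without culture 3, and the genes called in both then numbered 3, 7 and 36 higher and 17, 50 and 195 lower.

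Among the genes higher in both were Prm1, a protamine known from sperm, Lhx2, a homeobox factor of forebrain progenitors, and Rbfox1, a neuronal splicing factor (5.15). Prm1 read 6.76 to 8.43 in tissue, 1.12, 1.03 and 0.82 in cerebellar NSC and 2.88 to 5.81 in the lines, a difference of 6.48 ± 0.30 for tissue and of 3.81 ± 0.50 for the lines against IV ventricle NSC (adjusted p = 0.00575). Lhx2 read 4.61 to 5.79, 3.49, 2.47 and 2.64 and 5.18 to 6.14, with 2.45 ± 0.24 and 2.79 ± 0.29. With all 9 NSC as control, the SVZ cultures among them, the tissue difference of Lhx2 was 1.12 and was not called (adjusted p = 0.168, the highest of its alternatives). The levels of Prm1 in the lines lay between those of NSC and tissue, whereas those of Lhx2 overlapped with the tissues. The transposase-derived Pgbd5 (4.09), the synaptotagmin Syt9 (3.19) and the galactolipid enzyme Ugt8a (2.56) were the others named by the rule. Lower in both were Aldh1l1, Rab26, the phospholipase Plcd4 (-3.82), the receptor Epha5 (-4.32), the integrin ligand Npnt (-4.44) and the secreted Ecrg4 (-3.19). Aldh1l1 in the lines read 2.21 to 3.97, all but level with or below the lowest tissue, and differed from IV ventricle NSC by -6.53 ± 0.36 (adjusted p = 1.15e-05). Ecrg4 was not called without NSC culture 3 (-2.14, adjusted p = 0.0879, in a range of 0.00087 to 0.114 over its alternatives) and was uneven, at 7.11, 4.66 and 9.03 in the cerebellar NSC and highest among tissues in 92 (6.43) and 49 (4.79), the pair with choroid plexus genes.

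Several genes already described fall by their line levels into those low in cultures of either kind (Atoh1, Gli1, Mycn, Nhlh2, C1qa, Cldn5), those that cultures of either kind hold at high level (Sox2, Nes, Olig2, Notch1, Spry4, Hmgcs1) and those called the same way in tissue and lines against the 2 sets of hindbrain NSC (Prm1, Lhx2, Aldh1l1). The first of these sets mixes genes of the granule lineage with genes of myeloid and vessel cells. Tissue and culture differ in both, and which cells carried a gene was not measured.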

How the data were processed

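Total RNA of each sample was labelled as biotinylated cRNA and hybridised to an Affymetrix mouse array. The deposited values are log2 intensities that the authors summarised with RMA, per the submitters' processing notes, with no version named there. RMA fits all arrays together, so a level depends on the whole set of 31. GEO's platform annotation names 34958 of 45101 probe sets by 1 symbol, and 932 with several symbols and 9211 without one were not used. Where several probe sets read 1 of the 18194 genes, the one with the brightest average on the 31 arrays was kept. The 8 tissues and 3 cerebellar NSC were compared by limma 3.58.1 in R 4.3.3, with Benjamini-Hochberg adjustment over all genes and a call at an adjusted p under 0.05. Tissue and line of 1 tumour were paired in their comparison, since both labels give the tumour, and lines and IV ventricle NSC without one. A value after ± is the standard error. In simulated data of this size 91 of 100 genes changed by 1 log2 unit and 98 of 100 changed by 2 were called, with 10 false calls. The simulation drew independent normal values with the same spread in both groups and changed 200 of 18194 genes. Far more genes were called in the real data, so it checks the running of the fit and not the calls of this comparison. The labels call the NSC biological replicates and give each tissue its own tumour, and p-values measure the spread between these samples. The number of arrays limits the precision. Python 3.11.15 and matplotlib 3.10.9 made the tables and figures.

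The genes named were Ptch1, the 12 highest and 12 lowest differences without overlap, and members of the gene lists that a rule allowed. All members of the hedgehog and granule precursor lists were allowed. Of each other list, the rule allowed the first 4 as written, up to 4 with the smallest p and up to 2 in the other direction. Not every gene so allowed is described, so the named members of a list are a part of those allowed. For the genes called both in tissue and in lines, the 6 highest and 6 lowest were named. The groups, the 36 gene lists and the tests were chosen with earlier results of these data known.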

Additional observations from a re-analysis of the deposited data

Results flagged for a closer look

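Among 8 tissues, a sample whose gap to its nearest neighbour exceeded 0.526 of the range stood apart by Dixon's criterion, which chance meets in about 1 of 20 groups. Of 240 genes and list means examined, 16 had such a tissue (6.67%), a share near that of chance. Some of these genes are members of lists whose means were also examined, so the values are not independent.

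Tissue 91 stood apart in 4 genes. Its Zic5 level was 2.97, where the other 7 tissues held 7.60 to 8.25, and its C1qa level was 7.72, where the others held 8.69 to 9.24. Tubb3, the neuronal tubulin, read 9.27 there against 10.10 to 10.79, and Meis2 read 3.53 against 1.66 to 2.33.

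Tissue 83 stood apart in 5 values. Ifit1, an interferon-induced gene, read 4.02 where the other tissues held 1.55 to 1.98, and the mean of the interferon response list was 4.48 against 3.10 to 3.51. The mean of the mature oligodendrocyte list was 4.90 against 3.46 to 4.11, and its member Aspa read 3.40 against 2.36 to 2.55. Plcd4 read 4.09 against 2.59 to 3.18.

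Tissue 68 held the highest Eomes, a factor of unipolar brush cells of the cerebellum, at 4.48 against 2.49 to 3.34, and the highest mean of the Notch pathway list, at 4.88 against 4.48 to 4.65. Tissue 74 had the highest mean of the forebrain patterning list, 2.75 against 1.99 to 2.24. Folr1 read 5.62 in tissue 92 against 1.53 to 3.31, and H2-Aa 5.53 in tissue 49 against 2.93 to 4.10. Mcm7 was lowest in tissue 9, at 10.50 against 10.77 to 10.99, and Vav3 lowest in tissue 77, at 1.99 against 2.65 to 2.96.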

How the results depend on the processing

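Of the 204 genes named, 181 were called, and 169 of these were called in each of the 24 alternatives that tested them. Of the 23 not called, 9 were called in some alternative. Leaving out the dimmer genes tested 121 of the 204. In tissue against cerebellar NSC 7926 genes were called, 6619 to 10016 under the alternatives other than leaving out the dimmer genes (5767 of 9097 called) or a minimum of 2-fold (2812). Scaling to the brighter genes gave 4339 higher and 3338 lower (56.5% of calls higher against 44.5%), with a shift of 0.11 in the median of all genes. Without the dimmer genes, the granule precursor list kept 6 of 15 measured genes with 6 called higher, the hedgehog list 13 of 19 with 5, the microglia list 2 of 22 with 2 and the endothelial list 1 of 16 with 1, because fewer genes were tested. With 9 NSC as control 12 mitosis genes were lower in place of 7, 10 mature granule genes higher in place of 6, 8 mural genes higher in place of 5, 7 oligodendrocyte genes higher in place of 3, 6 astrocyte genes lower in place of 3, 7 DNA replication genes higher in place of 4 and 8 lower in place of 3, 8 ATF4 genes lower in place of 5, 5 interferon genes higher in place of 3 and 5 Wnt genes higher in place of 3. With all 27 samples in the fit 1 neural stem gene and 1 interferon gene were higher in place of 3 each, and with bright scaling 3 ATF4 genes were lower. The cause was not tested. Lines against IV ventricle NSC gave 24 to 303 genes without 1 NSC culture, those higher in both comparisons 3 to 36 and those lower in both 17 to 195.

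No paired analysis was possible because tissues and NSC come from different mice; for tissues against lines, 9033 genes were called with the tumour as a replicate block and 8984 with no replicate block.

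The other direction was seen for these genes, of which En2 alone was called. En2 read 0.25 with 6 hindbrain NSC and 0.80 with 9 NSC. Ptch1 read 0.0526 with bright scaling, 0.204 with the mean of probe sets, 0.0280 with 9 NSC, 0.194 with 4 tissues of 1 name ending and 0.0258 without tissues 92 and 49, and -0.223 to 0.0953 with 1 sample left out. Top2a read -0.0166 with median scaling, -0.00520 with 6 hindbrain NSC and -0.0759 to 0.0751 with 1 sample left out. Mki67 read -0.0151 with median scaling and -0.0198 to 0.0442 with 1 sample left out. Car8 read -0.531 without tissues 68 and 83 and -0.289 to 0.995 with 1 sample left out. Syt1 read -0.162 with the 4 tissues, -0.0346 without 68 and 83 and -0.0264 to 0.745 with 1 sample left out. Cd3e read 0.0268 with bright scaling, 0.0482 with 6 NSC and 0.0676 with 9. Folr1 read -0.168 without 92 and 49, and Ifit1 -0.0101 to 0.342 with 1 sample left out. The causes were not tested. Low signal limits these arrays, since genes at the floor can show no fall.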

Other observations

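Extracellular and cytoplasmic proteins linked to growth in culture did not all differ one way. Of 15 measured, 5 were higher in tissue and 5 lower. Galectin 1 (Lgals1), a sugar-binding protein, read 8.44 to 9.52 in the tissues and 11.75, 11.85 and 12.05 in the NSC, a difference of -2.78 ± 0.20. Its relative galectin 3 (Lgals3), which macrophages make, read 5.71 to 7.53 against 1.47, 1.39 and 1.40, a difference of 5.20 ± 0.34, and the lines read 1.26 to 1.61. The calcium-binding S100a6 differed by 4.45 ± 0.23 and the matrix protein Tgfbi by 3.59 ± 0.52, and the integrin Itga5 was lower by -2.64 ± 0.21. Of 7 genes of the human Group 4 panel 3 were higher, namely Barhl2, the potassium channel Kcna1 (2.58 ± 0.45) and the netrin receptor Unc5d (2.03 ± 0.52, not called with tissues 74, 91, 92 and 9 alone, adjusted p = 0.051, the highest of its alternatives). Of 14 genes of the amino acid and ATF4 response 1 was higher and 5 lower (3 without NSC culture 2 and 8 without tissue 91), among them Phgdh, which starts serine synthesis (-1.02 ± 0.18), and Sesn2 (-1.64 ± 0.18), whereas Psat1, the next enzyme of serine synthesis, was not called (0.16 ± 0.14). Of 12 ribosomal protein genes 4 were higher, Rps3 and Rps14 among them (0.47 ± 0.08 and 0.49 ± 0.07), and 1 was lower. With the mean of probe sets 2 were higher, and Rps3 was not called (0.17, adjusted p = 0.0741, the highest of its alternatives).

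Of 15 interferon response genes 3 were higher in tissue, Ifit2 among them (0.99 ± 0.17), near the 19.4% of all genes. With tissue 83 left out 5 were higher. The genes that follow lie outside the rule for names and were picked from their values. In tissue 83 Ifit3 read 5.83, Usp18 5.52 and Oasl2 4.40, where the other 7 tissues held 2.55 to 3.29, 1.50 to 2.06 and 1.52 to 1.92. Of the 12 forebrain patterning genes 1 was higher and 2 lower. Dlx1 and Dlx2, paired homeobox genes of forebrain inhibitory neurons, read 6.68 and 4.03 in tissue 74. In the other 7 tissues Dlx1 held 1.18 to 3.31 and Dlx2 1.04 to 1.57, beside 1.26 to 1.50 and 1.38 to 1.61 in the NSC.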
